A study of Mus musculus with 30 samples.

Results

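Semaphorins and ephrins are large families of guidance cues, and plexins and Eph receptors are receptors for them. The transcripts of these families were followed here in cultured cells labelled as mouse leg muscle. The set held 57 of the 18193 genes named on the arrays. It took every gene whose symbol began with Sema or Plxn, every ephrin of the A or B class, every Eph receptor of the A or B class, and Nrp1, Nrp2, Slit2, Slit3, Robo1 and Ntn1. That gave 20 semaphorins, 10 entries under the plexin prefix, 6 neuropilins, Slits, Robo and netrin, 8 ephrins and 13 Eph receptors. One plexin entry, Plxna4os1, is by its name a transcript from the opposite strand of Plxna4 and not a plexin. The genes were covered by 133 probe sets, and each was represented by its brightest probe set, taken from the A chip where the A chip had one, which placed 49 genes on the A chip and 8 on the B chip.

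The cultures were sampled at 0, 4, 12, 24 and 48 h with 3 replicates per hour, and total RNA of each was hybridised to an A and a B chip of an Affymetrix mouse set, 30 arrays in all. The labels name no strain, age, medium or treatment, and do not say what began at 0 h, so each later hour was set against 0 h and nothing more specific was asked. Nor do they say whether replicates were separate cultures or animals, and each p-value below reflects the variation among arrays, which may be technical only. Values are the deposited probe set intensities in array units, which can be compared between arrays for 1 probe set but not between probe sets or chips.

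Semaphorins are secreted, membrane-anchored or transmembrane ligands that signal through plexins, whose intracellular GTPase-activating domain acts on small GTPases and thereby on adhesion and the cytoskeleton. Most class 3 semaphorins need a neuropilin beside the plexin, whereas Sema3e binds Plxnd1 directly, class 4 members bind B plexins and Sema7a binds Plxnc1. Ephrins are membrane-bound ligands of the Eph receptor tyrosine kinases, signal in both directions at cell contacts, and are best known for sorting cells and steering axons. In muscle these families are studied in myoblast migration, in the patterning of motor innervation and in vessels.

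All 12 skeletal muscle markers listed, Myod1, Myog and Des among them, passed the filter on dim probe sets. By 24 h 6 of 12 were called higher, where 1.65% of all genes tested were, and the median log2 difference of the 12 was 0.97. Of 10 endothelial markers 3 passed, and the summed A chip intensity of the 10 was 557.5 to 862 at 48 h, against 477.9 to 576 at 0 h, with Tie1 and Vwf near 2. Of 8 Schwann cell and glia markers measured 2 passed the filter, and Erbb3, which also is expressed in muscle cells, rose by 24 h (log2 difference 1.51, limma adjusted p = 0.0042). Markers of neurons (3 of 9 past the filter), fibroblasts (3 of 9), pericytes and smooth muscle (4 of 9) and leukocytes (3 of 8) had no gene called at any hour over all arrays. A term for replicate 3 in the model changed some of these calls. Under it 8 of the 12 muscle markers were higher at 24 h, where 5.53% of all genes were. At 48 h 7 were higher, against 4.2% of all genes, and Myod1 was lower (-0.73, adjusted p = 0.00111). With the term the pericyte marker Rgs5 was lower at 24 h (-1.89, adjusted p = 3.03e-05) and at 48 h (-1.73, adjusted p = 7.93e-05), the neuron marker Stmn2 was lower at 24 h (-1.44, adjusted p = 0.00996), and the fibroblast marker Col1a2 was higher at 48 h (0.80, adjusted p = 0.00367). The summed A chip intensity of the 9 pericyte and smooth muscle markers was 9428.3 to 12234 at 48 h, against 11596 to 16876 at 0 h, that of the 9 neuron markers 502.6 to 923 at 24 h, against 839 to 1821 at 0 h, and that of the 9 fibroblast markers 700.3 to 1225 at 48 h, against 691.5 to 883 at 0 h. Most of the pericyte and smooth muscle sum was Acta2, which averaged 11804 at 0 h and 9318.9 at 48 h, so the sum says little of the other markers. Acta2 was called at no single hour but passed the F test over all hours (adjusted p = 0.0472). The part of cells with any of these markers in the changes below was not tested. Replicate 3 stood apart. Over all hours 30.6% of the 11772 genes tested differed between replicate 3 and the other two, with the pericyte marker Rgs5 at 69.4 in replicate 3 and 1603 in replicates 1 and 2. Where a term for replicate 3 changed the call of a gene of the set at an hour, its adjusted p is given too. In RNA from whole cultures, fewer cells of a type and less RNA per cell cannot be told apart.

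The upper 60% of probe sets on each chip were tested, and 34 of the 57 genes passed, namely 13 semaphorins, 8 plexins, 5 of the neuropilin, Slit, Robo and netrin group, 3 ephrins and 5 Eph receptors. Just inside the filter were Sema6b, with a mean intensity of 107 over all arrays, and Sema6d with 108 on the A chip, and Sema3g with 184 on the B chip. Just outside were Efna2 with 96.3, Sema4g with 99.2 and, on the B chip, Plxna4os1 with 160.1. Of the 23 genes not tested, 9 (Efna2, Efna3, Efna5, Epha3, Epha7, Plxnb3, Sema3f, Sema4f and Sema5a) had another probe set that passed. Every probe set of the other 14 lay below the filter. Those 14 were Sema4a, Sema4b, Sema4g, Sema5b, Plxna4os1, Slit3, Efna1, Efnb3, Epha1, Epha10, Epha5, Epha6, Epha8 and Ephb6.

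Of the tested genes, the Eph receptor Ephb3 and the secreted semaphorin Sema3b rose, and the netrin Ntn1 and the plexin Plxnd1 fell. At 24 h 3 of 34 genes passed an adjusted p of 0.05 (Ephb3 and Sema3b higher, Ntn1 lower), or 8.82%, where 2.61% of all genes tested passed, 1.65% higher and 0.96% lower. At 48 h the same 3 and Plxnd1 passed, 4 of 34 or 11.8%, against 2.08% of all genes (1.33% higher and 0.756% lower). In an F test over all hours Ntn1, Plxnd1 and Sema3b passed, against 2.06% of all genes. At 4 h and at 12 h limma called none of the 34, and 0% of all genes. An unadjusted p under 0.05 was reached by 2 of the 34 at 4 h, against 4.39% of all genes, and by 6 at 12 h, against 6.74%. The 4 comparisons share the arrays at 0 h, so their deviations are shared. The median log2 difference of the 34 genes was -0.24 at 24 h and 0.02 at 48 h, where all genes tested had medians of -0.05 and -0.03. By mean intensity 12 of the 34 were lowest at 24 h and 11 were highest at 48 h. The same count was not made over all genes, so it cannot be read as a trait of the set.

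**Figure D1:**
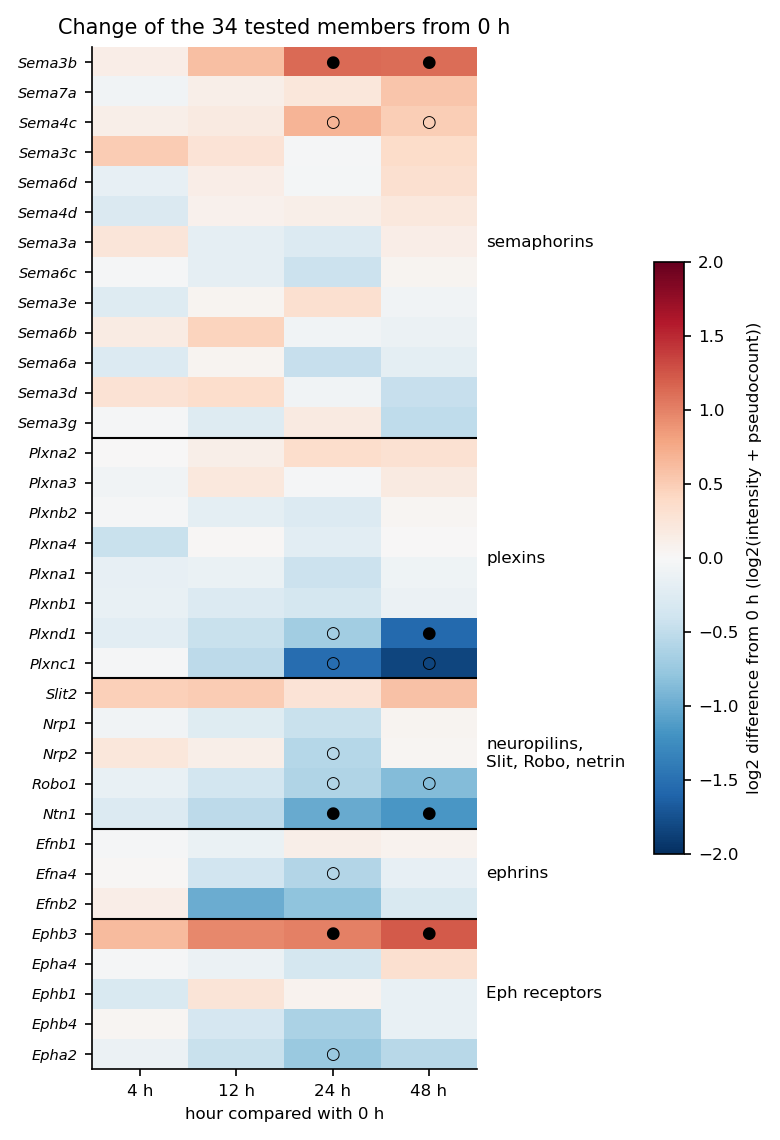
Heat map of the log2 difference from 0 h (colour, on the log2(intensity + pseudocount) scale) of the 34 tested genes (rows, by family) at 4, 12, 24 and 48 h (columns). Filled dots mark an adjusted p under 0.05 over all arrays, and open dots mark genes that passed only with a term for replicate 3; no row carries a dot at 4 h, and Plxnd1 at 48 h is among the darkest falls.

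With a term for replicate 3 in the model more of the set passed, as did more of all genes. At 24 h 10 of 34 were called against 11.8% of all genes, adding Sema4c (higher) and Efna4, Epha2, Nrp2, Plxnc1, Plxnd1 and Robo1 (lower). At 48 h 7 of 34 were called against 9.14% of all genes, adding Sema4c (higher) and Plxnc1 and Robo1 (lower). At 12 h 0.977% of all genes passed and none of the 34 did. The F test over all hours with this term called 10 of 34, against 13% of all genes, adding Ephb3, Sema4c, Sema3a, Sema3d, Nrp2, Plxnc1 and Robo1. In replicates 1 and 2 alone 2 of 34 passed at 12 h (3.5% of all genes), 11 at 24 h (13.6%), 9 at 48 h (12%) and 13 in the F test (16.3%). Counting only whether the arrays of an hour lay wholly to one side of those at 0 h, 3 genes lay above at 24 h (Ephb3, Sema3b and Sema4c), where 9.68% of all genes did. The 8 genes that lay below at 24 h were Efna4, Epha2, Ntn1, Plxna1, Plxnd1, Robo1, Sema6c and Plxna4, where 11.3% of all genes did. At 48 h Ephb3, Sema3b, Sema6d and Sema4c lay above (8.26% of all genes) and Ntn1, Plxnc1, Plxnd1 and Robo1 lay below (10.1%). At 12 h Ephb3, Sema3b and Slit2 lay above (6.71%) and Efna4, Efnb2, Epha2 and Ntn1 lay below (5.77%). At 4 h only Ephb3 lay above (3.89%) and none lay below (5.55%).

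Sema3b, a secreted class 3 semaphorin that binds neuropilins and is a candidate tumour suppressor in human lung cancer, had an intensity of 93.0, 83.4 and 151 at 0 h, 143.5, 84.7 and 139 at 4 h, 162, 163 and 205.5 at 12 h, 279.5, 285 and 245 at 24 h and 270.5, 357 and 189.6 at 48 h (replicates 1, 2 and 3 in this order, as for every gene below). The arrays at 24 and 48 h all lay above those at 0 h, and those at 4 h overlapped them. It averaged 269.9 ± 21.8 at 24 h and 272.5 ± 83.9 at 48 h, against 109 ± 36.7 at 0 h (SD, n = 3 each), log2 differences of 1.14 (SE 0.24, limma adjusted p = 0.0204) and 1.12 (adjusted p = 0.0284). Either call was lost when 1 of 4 arrays was left out, replicates 1 or 2 of 0 h or of the later hour, with adjusted p up to 0.119 at 24 h and 0.161 at 48 h. In replicate 3 alone the 48 h difference was 0.28, against 1.54 in replicates 1 and 2.

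Sema4c, a transmembrane ligand of Plxnb2 that has been studied in mouse myoblast differentiation, had B chip intensities of 1799.7, 2444 and 1871 at 0 h, 2223, 2263 and 2079 at 4 h, 2555, 2525 and 1875 at 12 h, 3178, 3269.6 and 3332 at 24 h and 2705, 2976 and 2881 at 48 h. All 3 arrays at 24 h and at 48 h lay above those at 0 h. Its log2 difference at 24 h was 0.68 (SE 0.15, adjusted p = 0.0503), just short of the threshold, and with a term for replicate 3 the adjusted p was 0.00737. Over all alternatives run it lay between 0.00737 and 0.207. At 48 h the difference was 0.49 (adjusted p = 0.147, and 0.0423 with that term).

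Sema7a, a GPI-anchored semaphorin, had an intensity of 315, 254 and 281 at 0 h, 191, 376 and 266 at 4 h, 362, 437 and 179.6 at 12 h, 360.4, 371 and 277.5 at 24 h and 618, 619.9 and 201 at 48 h. At 48 h replicates 1 and 2 were above every array at 0 h and replicate 3 was below them. The log2 difference over 3 replicates was 0.56 (adjusted p = 0.54), and in replicates 1 and 2 alone 1.05 (adjusted p = 0.013). The change in replicate 3 minus that in replicates 1 and 2 was -1.48, which rests on 1 array of replicate 3 at each hour.

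Sema3d, a secreted class 3 member, lay at the 98.2 percentile of mean level on the B chip, with means of 6699 at 0 h, 7908 at 4 h, 7688 at 12 h, 5614 at 24 h and 4326 at 48 h. Its SDs were 2174 to 4761, with replicate 3 the lowest at every hour. Its 48 h difference of -0.46 had an adjusted p of 0.857. In replicates 1 and 2 alone it was -0.71 (adjusted p = 0.00624), and in replicate 3 it was 0.05. Sema3e, the ligand of Plxnd1, averaged 849.6 at 0 h, 774 at 4 h, 859 at 12 h, 1052 at 24 h and 862 at 48 h. Sema3a, a repellent cue that satellite cells are known to secrete in regenerating mouse muscle, averaged 579 at 0 h, 697 at 4 h, 513 at 12 h, 484 at 24 h and 644 at 48 h. Neither passed at any hour, with adjusted p of at least 0.556. Sema3c, a class 3 member needed for the cardiac outflow tract in mice, averaged 321 at 48 h and 240.4 at 0 h, a difference of 0.37 (adjusted p = 0.505). Its B chip probe set had a difference of 0.00 (adjusted p = 0.999). Sema3g, known from endothelium, averaged 127 at 48 h and 197 at 0 h (-0.51, adjusted p = 0.562).

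The other tested semaphorins were transmembrane members of classes 4 and 6. Sema4d, the ligand of Plxnb1, averaged 365 at 48 h and 310.5 at 0 h (0.21, adjusted p = 0.674). Sema6a, Sema6b, Sema6c and Sema6d, which bind A plexins or are close relatives of those that do, had 48 h differences of -0.19, -0.12, 0.05 and 0.32, none with an adjusted p below 0.723. The 13 tested semaphorins had a median 48 h difference of 0.14, with 8 above 0 and 5 below. The 7 not tested had mean intensities of 20.9 to 99.2.

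Among the receptors Plxnd1 changed most clearly. This plexin, the receptor of Sema3e and best known from vessel patterning, had an intensity of 314, 368 and 470.4 at 0 h, 363.5, 319 and 289 at 4 h, 322, 189 and 324.5 at 12 h, 207, 255 and 209 at 24 h and 110.5, 111.5 and 109 at 48 h. The 3 arrays at 48 h lay close together and below every array of any other hour. Plxnd1 averaged 110.3 ± 1.31 at 48 h and 384 ± 79.5 at 0 h (SD, n = 3 each), so it fell by 1.55 on the log2 scale (SE 0.20, limma adjusted p = 0.00225). The call was kept without any 1 of the 15 pairs of arrays, with adjusted p of at most 0.0206. At 24 h the difference was -0.70 (adjusted p = 0.0851, and 0.0239 with a term for replicate 3). Of the 10 endothelial markers only Egfl7, Kdr and Tek passed the filter, and none of these was called at any hour. The others could not be called, and the part of endothelial cells in this fall was not tested.

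**Figure D2:**
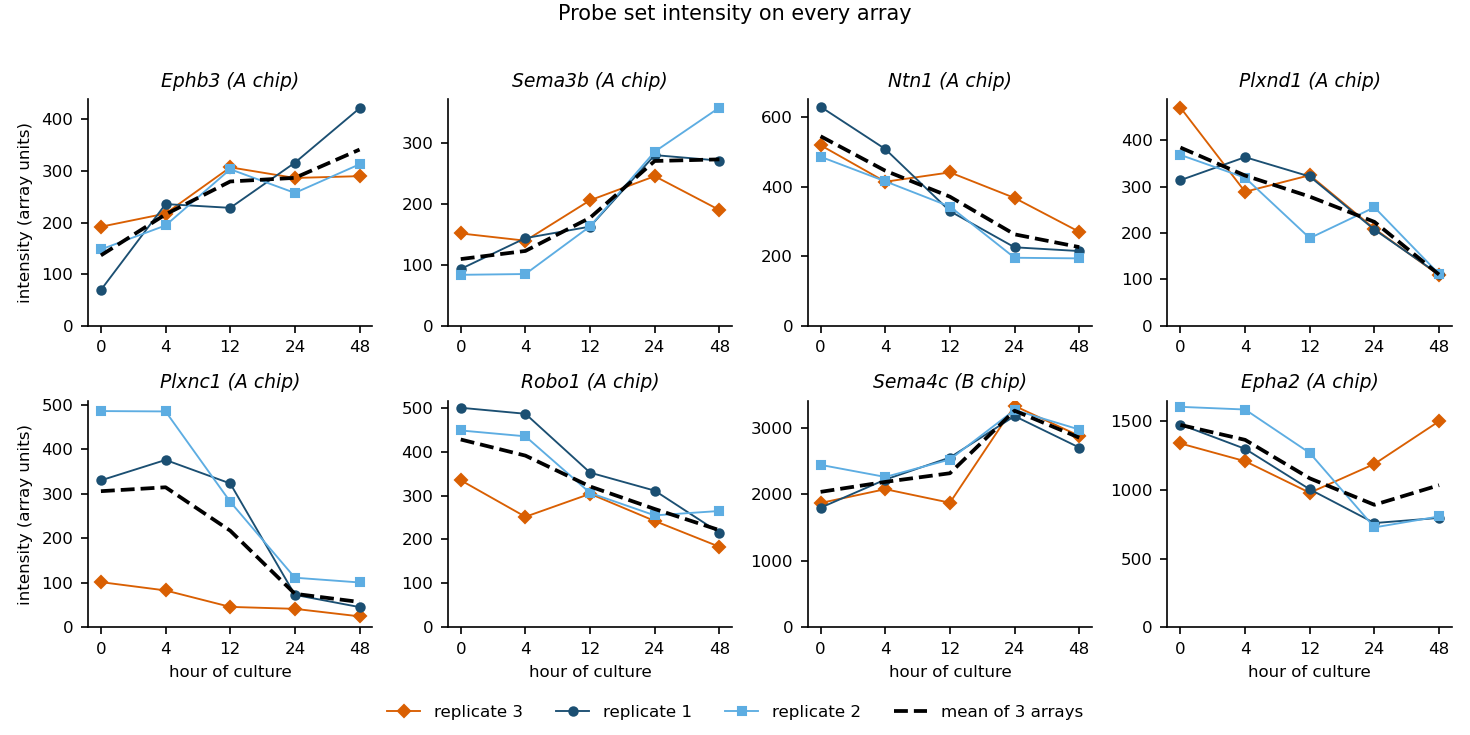
Probe set intensity (vertical axes, array units, starting at 0) against hour of culture (0, 4, 12, 24 and 48 h) for 8 genes on every array, with 1 line per replicate and a dashed line for the mean of 3 arrays. Ephb3 and Sema3b end above their 0 h arrays, Ntn1 and Plxnd1 end below them, and Plxnc1 shows replicate 3 under the others at every hour.

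Plxnc1, the receptor of Sema7a, had the largest log2 difference of the 34 genes at 48 h, with a wide spread between replicates. Its intensity was 329.9, 485 and 101.5 at 0 h, 376, 485 and 82.8 at 4 h, 323, 282 and 45.9 at 12 h, 72.9, 111 and 41.5 at 24 h and 45.4, 101 and 24.6 at 48 h. Each replicate was lower at 48 h than at 0 h, and replicate 3 was the lowest of the 3 at every hour. The difference at 48 h was -1.84 (adjusted p = 0.194). With a term for replicate 3 the adjusted p was 0.000976, in replicates 1 and 2 alone the difference was -2.13 (adjusted p = 0.000315), and over all alternatives the p lay between 0.000315 and 0.564. At 24 h the difference was -1.52 (adjusted p = 0.271, and 0.0032 with the term). A B chip probe set of Plxnc1 averaged 38.2 at 48 h and 324 at 0 h, a log2 difference of -1.84 (adjusted p = 0.0972, and 0.00936 with the term).

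The A and B plexins varied less. Plxna2, a co-receptor of neuropilins, averaged 456 at 0 h, 457 at 4 h, 491 at 12 h, 587 at 24 h and 567 at 48 h on the A chip. All 4 of its probe sets were higher at 48 h than at 0 h (log2 differences 0.30 to 0.58), of which 1 passed with a term for replicate 3 (adjusted p = 0.0304) and none without it. At 24 h 2 of its 3 B chip probe sets passed with the term (0.76 and 0.54, adjusted p = 0.00675 and 0.0207). Plxna1, Plxna3 and Plxna4, its paralogs, had 48 h differences of -0.08, 0.18 and 0.01. Plxna1 was lowest at 24 h, with 133.5, 157 and 170.4, all below the 269.9, 197 and 192 at 0 h (-0.44, adjusted p = 0.34). Plxnb1 and Plxnb2, the receptors of class 4 semaphorins, averaged 1336.5 and 1333 at 48 h, against 1449 and 1295 at 0 h, on the B and the A chip. On the probe sets used here none of these 6 passed at any hour over all arrays, with adjusted p of at least 0.308. Plxnb3 was not tested on the A chip, and its B chip probe set had a difference of -0.74 (adjusted p = 0.631).

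Ntn1 encodes netrin-1, a secreted laminin-related cue whose receptors are Dcc, neogenin and the Unc5 proteins. Its intensity was 630.4, 486.5 and 519.7 at 0 h, 509, 416 and 415 at 4 h, 329.9, 343 and 441.5 at 12 h, 226, 196 and 368 at 24 h and 215, 194 and 270.4 at 48 h. The arrays at 12, 24 and 48 h all lay below those at 0 h, and replicate 3 was the highest at each of these hours. Ntn1 averaged 263 ± 92.0 at 24 h and 226 ± 39.5 at 48 h, against 546 ± 75.3 at 0 h (SD, n = 3 each). It fell by 1.01 (SE 0.21, adjusted p = 0.0195) and by 1.17 (adjusted p = 0.0121) on the log2 scale. A second Ntn1 probe set on the A chip had differences of -0.22 and -0.22 and was not called (adjusted p = 0.689 and 0.73), so the 2 probe sets disagree. The 24 h call was lost without any 1 of 4 arrays, replicates 1 or 2 at 0 h or 24 h (adjusted p up to 0.12), and the 48 h call without any 1 of 3, replicate 1 at 0 h or replicates 1 or 2 at 48 h (up to 0.0711).

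Robo1, the Slit receptor, had an intensity of 499.9, 448 and 335 at 0 h, 486, 435 and 252 at 4 h, 352, 306 and 304 at 12 h, 311, 255 and 242 at 24 h and 215, 265 and 183 at 48 h. The arrays at 24 h and at 48 h all lay below those at 0 h. Its log2 difference at 48 h was -0.86 (SE 0.22, adjusted p = 0.0624). With a term for replicate 3 it was called (adjusted p = 0.00267), as was its 24 h difference of -0.60 (adjusted p = 0.0201, against 0.18 without the term). The 2 B chip probe sets of Robo1 had differences of -0.02 and 0.10, and over all alternatives the adjusted p lay between 0.00267 and 0.991. Slit2, a secreted Robo ligand, had 189, 232 and 447.5 at 48 h, against 175, 135 and 209 at 0 h, where replicate 1 at 48 h lay below replicate 3 at 0 h, and its difference was 0.59 (adjusted p = 0.444). Slit3 was not tested, with a mean intensity of 8.95.

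The neuropilins Nrp1 and Nrp2, which bind class 3 semaphorins and vascular endothelial growth factors, passed at no hour over all arrays, while both differed between replicates. Nrp1 had an intensity of 850.4, 903 and 1688 at 0 h, 931, 827 and 1462 at 4 h, 652, 805 and 1463 at 12 h, 503, 481 and 2039 at 24 h and 847.5, 735 and 2333 at 48 h. Replicate 3 was the highest at every hour, and its gap to the others was widest at 24 and 48 h. In replicates 1 and 2 alone its log2 difference at 24 h was -0.80 (adjusted p = 0.00341), while replicate 3 had 0.27. That gap of 1.07 between the replicates' changes rests on 1 array of replicate 3 at each hour. On 1 of the 3 other Nrp1 probe sets it was 1.37, and it had the same sign on all 4. Nrp2 averaged 239 at 0 h, 286 at 4 h, 257 at 12 h, 152 at 24 h and 244 at 48 h, with a 24 h difference of -0.57 (adjusted p = 0.469, and 0.0269 with a term for replicate 3). Its 2 tested B chip probe sets had -0.90 (adjusted p = 0.739, and 0.00624 with the term) and -1.33 (adjusted p = 0.405, and 0.0536 with the term).

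Of the ephrins, Efna4, a GPI-anchored ligand of EphA receptors, had an intensity of 277, 353 and 290.4 at 0 h, 343, 313 and 279.6 at 4 h, 209, 261 and 217.5 at 12 h, 178, 174 and 234 at 24 h and 263.5, 231 and 324 at 48 h. The arrays at 12 h and at 24 h all lay below those at 0 h, and those at 48 h overlapped them. The 24 h difference was -0.58 (adjusted p = 0.0865, and 0.0269 with a term for replicate 3), and at 48 h it was -0.16 (adjusted p = 0.732). Efnb2, the transmembrane ligand of Ephb4 that marks arteries in mice, had 686.5, 583 and 350.3 at 0 h, 937, 569 and 347 at 4 h, 178.5, 322 and 259 at 12 h, 163, 253 and 541.5 at 24 h and 327.5, 394 and 555 at 48 h. At 12 h every array lay below those at 0 h, and at 24 h replicates 1 and 2 did while replicate 3 did not. Its 24 h difference was -0.81 over 3 replicates (adjusted p = 0.337), -1.51 in replicates 1 and 2 (adjusted p = 0.00331) and 0.59 in replicate 3. The difference between these changes, 2.09, rests on 1 array of replicate 3 at each hour. On a second tested probe set the same quantity was 2.21 at 24 h and 1.75 at 48 h, and on the third it was 1.25 at 24 h. Efnb1, a further transmembrane ephrin, averaged 439 at 48 h and 413 at 0 h (0.06, adjusted p = 0.937).

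Efna5, a GPI-anchored ephrin that guides motor and sensory axons in mice, passed the filter on the B chip only. That probe set had means of 2765 at 0 h, 2731 at 4 h, 2469 at 12 h, 2214 at 24 h and 2670.2 at 48 h. The probe set was not called at 48 h (log2 difference -0.05, adjusted p = 0.97). Replicate 3 was higher than replicates 1 and 2 over all hours (0.79, adjusted p = 0.000267). The B chip probe sets of Efna2 and Efna3, likewise ligands of EphA receptors, had 48 h differences of -0.18 and -0.15 and were not called.

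Ephb3, a receptor of transmembrane ephrins known from intestinal crypts and commissural axons, was the one tested Eph receptor that was called. Its intensity was 69.3, 148 and 192 at 0 h, 236, 194 and 217 at 4 h, 228, 303 and 307 at 12 h, 316, 257 and 286 at 24 h and 421, 313 and 289.8 at 48 h. All later arrays lay above the 3 at 0 h, which themselves spread widely, replicate 1 being the lowest. Ephb3 averaged 286.5 ± 29.3 at 24 h and 341 ± 70.2 at 48 h, against 136 ± 62.1 at 0 h (SD, n = 3 each). The log2 differences were 1.01 (SE 0.25, adjusted p = 0.0446) and 1.22 (adjusted p = 0.0217). In replicate 3 alone they were 0.51 and 0.53, against 1.25 and 1.57 in replicates 1 and 2. The 24 h call was close to the threshold and was lost without any 1 of 12 of the 15 arrays, all but replicate 3 at 0 h and replicates 1 and 3 at 48 h (adjusted p up to 0.196). The 48 h call was lost without any 1 of 4, replicates 1 or 2 at 0 h or 48 h (up to 0.117). No second probe set of Ephb3 was on the chips.

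Epha2, a receptor of GPI-anchored ephrins, had an intensity of 1475, 1604 and 1337.5 at 0 h, 1298, 1584.5 and 1208.5 at 4 h, 1004, 1269 and 979 at 12 h, 759, 727 and 1188.5 at 24 h and 796, 807 and 1499 at 48 h. At 24 h all 3 arrays lay below those at 0 h, and at 48 h replicates 1 and 2 did while replicate 3 did not. The 24 h difference was -0.74 (adjusted p = 0.122, and 0.0299 with a term for replicate 3), and over all alternatives the p lay between 0.000611 and 0.412. At 48 h it was -0.56 (adjusted p = 0.281). The changes of replicate 3 and of replicates 1 and 2 at 48 h differed by 1.08, again with 1 array of replicate 3 at each hour.

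Ephb4, the receptor of Efnb2 that marks veins in mice, had 111, 68.9 and 230.3 at 24 h, against 202, 164 and 268 at 0 h, and a difference of -0.63 (adjusted p = 0.312). Epha4, which binds ephrins of both classes and guides motor axons into the limb, averaged 195 at 48 h and 147 at 0 h (0.33, adjusted p = 0.592). Ephb1, a further receptor of transmembrane ephrins, averaged 390.5 at 48 h and 453 at 0 h on the B chip (-0.15, adjusted p = 0.864). The 8 Eph receptors not tested had mean intensities of 13.9 to 107. B chip probe sets of Epha3 and Epha7 passed the filter, with 48 h differences of -0.33 and -0.23, neither called.

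Promoters were searched because muscle regulatory factors of the Myod1 family bind E-boxes, the short motifs of which CAGCTG is 1 form. The 250 bases before the start listed in RefSeq (GRCm38.p6) were available for 49 of the 57 genes. CAGCTG, which reads the same on both strands, was found in 9 of 49 (18.4%), against 14.7% of the 27025 genes in the table, and a MEF2 motif, searched on both strands, in 1 of 49 (2.04%) against 3.42%. Of the called genes with a window, Ephb3 held CAGCTG and Plxnd1 held neither motif, and the 9 genes were Ephb3, Sema3g, Sema4d, Sema6c, Sema7a and, among those not tested, Epha10, Epha6, Plxnb3 and Sema4g. The 30 bases around each match are shown 5′ to 3′ on the strand of the gene for the rising receptor Ephb3 and, for comparison, for Sema7a and Sema6c, which were not called, with CAGCTG in capitals.
Ephb3 chr16:21204646-21204675 (+): tcgcagcagaacCAGCTGgctgggcggtct
Sema7a chr9:57939907-57939936 (+): ctgtcttctttgCAGCTGggttctcccggt
Sema6c chr3:95164186-95164215 (+): gacagacagtgaCAGCTGgctgggagtgag
The matches lie 137, 193 and 141 bases before the listed start. They are matches of letters and say nothing of binding.

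Ligands and their receptors were set side by side by their log2 differences. At 48 h Sema7a had 0.56 and its receptor Plxnc1 -1.84, Sema3e -0.06 and its receptor Plxnd1 -1.55, and Slit2 0.59 and its receptor Robo1 -0.86, of which only Plxnd1 was called. Sema4c had 0.49 and its receptor Plxnb2 0.04, Sema4d 0.21 and Plxnb1 -0.12, and Efnb2 -0.31 and Ephb4 -0.15, none called. No test of the difference between a ligand and its receptor was run.

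**Figure D3:**
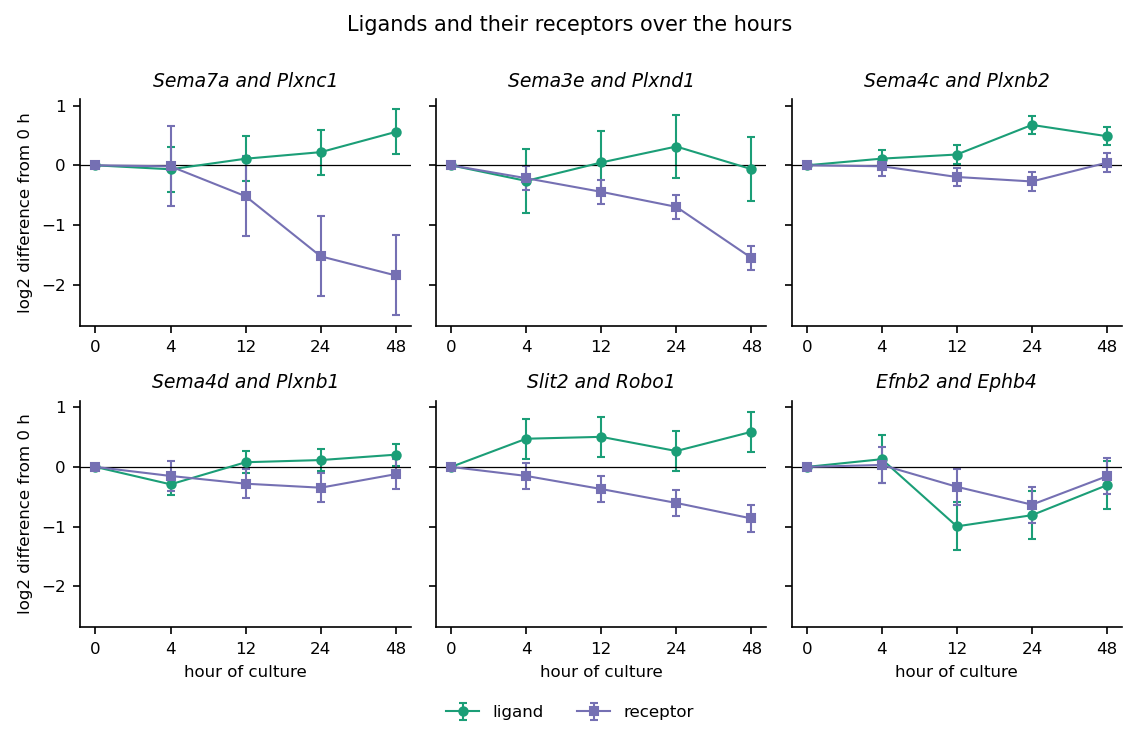
Log2 difference from 0 h (vertical axis, bars are the SE of the limma fit) against hour of culture for 6 ligands (circles) and their receptors (squares). Plxnc1 and Plxnd1 end lowest, at -1.84 and -1.55, while their ligands Sema7a and Sema3e end at 0.56 and -0.06.

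Replicate 3 differed from replicates 1 and 2 over all hours in 13 of the 34 genes, or 38.2%, where 30.6% of all genes tested did. This comparison took the 5 arrays of each replicate as separate units, although those of replicate 3 were alike across hours. If a replicate number marks a culture, its p-values do not measure variation between cultures. Sema3a, Nrp1, Nrp2, Slit2 and Ephb4 were higher in replicate 3 (14.9% of all genes were), and Sema3d, Sema3e, Sema6a, Sema7a, Plxna3, Plxnc1, Robo1 and Efnb1 were lower (15.7%). At each of the 5 hours the array of replicate 3 lay above both others for Sema3a, Nrp1 and Nrp2, and below both for Sema3d, Sema3e, Sema6a, Plxnc1 and Robo1. How many of all genes did so was not counted. The change over the hours was compared between replicate 3 and the other two in a further fit, where none of the 34 passed at any hour on the probe sets used here, against 0.00849% of all genes at 4 h, 0.051% at 12 h, 0.603% at 24 h and 1.75% at 48 h. For Efnb2 and Nrp1 the sizes of this difference on probe sets not used here are given above.

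Nrp1 averaged 1797 in replicate 3 and 754 in replicates 1 and 2 over the 5 hours, a log2 difference of 1.23 (limma adjusted p = 3.35e-06). All 4 Nrp1 probe sets, on both chips, were called higher in replicate 3, as were all 3 tested Nrp2 probe sets. Sema3d averaged 2335 in replicate 3 and 8503 in the others (-1.83, adjusted p = 4.27e-08), and its second probe set had -1.76 (adjusted p = 1.38e-06). Sema3e was lower in replicate 3 by each of 4 probe sets, 466 against 1086 on the one used here (-1.14, adjusted p = 0.000115). Neuropilins were higher in the replicate in which these class 3 semaphorins were lower, while Sema3a was higher there (689.7 against 530.2, adjusted p = 0.00376).

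Plxnc1 averaged 59.3 in replicate 3 and 261 in replicates 1 and 2 (-1.50, adjusted p = 2.28e-05), and its ligand Sema7a 241 and 390.5 (-0.58, adjusted p = 0.0237). Sema6a, Robo1, Plxna3 and Efnb1 in replicate 3 had -0.83, -0.38, -0.35 and -0.40 as log2 differences, and Nrp2, Ephb4 and Slit2 had 0.80, 0.48 and 0.61. Some markers of other cells also differed in replicate 3, where 30.6% of all genes tested did, and within some lists they went opposite ways. The 3 tested neuron markers (Nefl, Nefm and Stmn2) were all lower in replicate 3, and their list summed to 502.6 to 839 there, against 883 to 2177 in replicates 1 and 2. Of the fibroblast markers Col1a2 was higher (0.82, adjusted p = 1.32e-05) and Tcf7l2 lower (-0.43, adjusted p = 0.0252), and of the pericyte markers Cspg4 was higher and Rgs5 had a log2 difference of -3.95. Of the 12 skeletal muscle markers 4 were lower, Des (-0.49, adjusted p = 8.63e-05), Myod1 (-0.46, adjusted p = 0.000284), Chrna1 and Myog, and Tnni2 was higher. Of the endothelial markers Tek was lower, and of the leukocyte markers Cd14 was higher and Adgre1 lower. The tested glia markers Erbb3 and Sox10 were not called (adjusted p = 0.134 and 0.402). The part of any of these cells in the replicate difference was not tested.

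**Figure D4:**
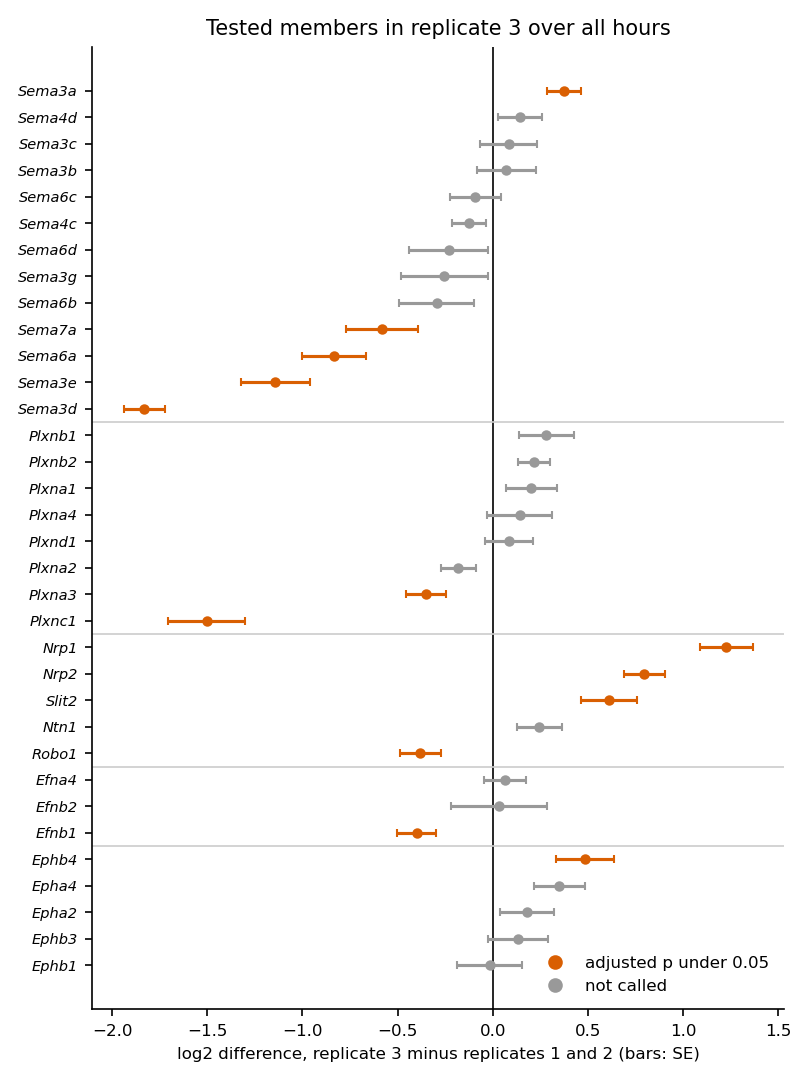
Log2 difference between replicate 3 and replicates 1 and 2 over all hours (horizontal axis, bars are SE) for the 34 tested genes (rows, by family). The 13 genes past an adjusted p of 0.05 are in orange, 8 of them below 0 with Sema3d lowest at -1.83, and Nrp1 among the highest at 1.23.

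**Figure D5:**
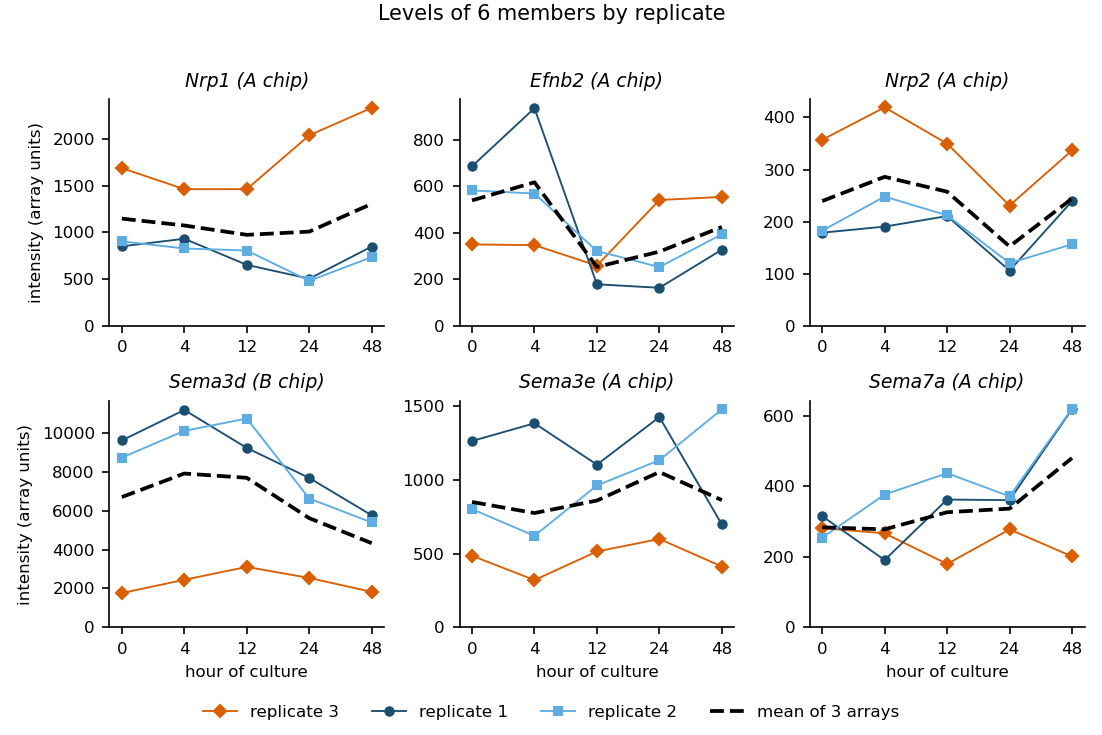
Probe set intensity (vertical axes, array units, starting at 0) against hour of culture for 6 genes, with 1 line per replicate and a dashed line for the mean of 3 arrays. Replicate 3 runs above the others at every hour for Nrp1 and Nrp2 and below them for Sema3d and Sema3e, while for Efnb2 and Sema7a its place changes with the hour.

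Genes downstream of these receptors were described from lists of known pathway members, chosen with earlier results of these data known. Of 26 tested genes of semaphorin and plexin signalling, 1 rose and 1 fell at 24 h, or 7.69%, against the 2.61% of all genes given above. Fyn, a Src family kinase, averaged 2875 at 24 h and 1223 at 0 h (log2 difference 1.17, adjusted p = 0.0148), and Dpysl3, a collapsin response mediator, averaged 999 and 2492 (-1.48, adjusted p = 0.0498). At 48 h Fyn was higher (adjusted p = 0.017) and Rras, a small GTPase that plexins act on, was lower at 1239.5 against 2009.8 at 0 h (-0.68, adjusted p = 0.0279). Under the replicate 3 term the list had 3 genes higher and 2 lower at 24 h and 2 higher and 4 lower at 48 h, where 11.8% and 9.14% of all genes were called, and Fyn was called at 12 h too (adjusted p = 0.0157). The term added the actin-severing cofilin Cfl2 (0.50, adjusted p = 0.024), the exchange factor Farp1 (0.48, adjusted p = 0.0242) and the kinase Cdk5 (-0.68, adjusted p = 0.00583) at 24 h. The list's median difference was -0.04 at 24 h and 0.00 at 48 h to 2 decimals.

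Of 32 tested genes of Eph and ephrin signalling, 2 fell at 24 h, or 6.25%, where 2.61% of all genes were called. At 48 h 2 rose and 1 fell, or 9.38%, against 2.08% of all genes. No gene of the list passed as higher at 24 h over all arrays. Tiam1, a Rac exchange factor that binds Eph receptors, averaged 258 at 48 h and 749.6 at 0 h (-1.43, adjusted p = 0.00368). It fell at 24 h too (-0.88, adjusted p = 0.0392). Rgs3, a regulator of G protein signalling that binds B ephrins, fell at 24 h (-1.10, adjusted p = 0.0191). Rasa1, the p120 Ras GTPase-activating protein that binds Eph receptors, rose to 1740.4 at 48 h, against 766 at 0 h (1.12, adjusted p = 0.0181), and Enah, an actin regulator, to 3699 against 1827 (0.98, adjusted p = 0.0492). Adding the replicate 3 term gave 3 genes higher and 3 lower at 24 h, and 3 and 3 at 48 h, where 11.8% and 9.14% of all genes were called. Enah (0.95, adjusted p = 0.002), the adaptor Nck1 (0.57, adjusted p = 0.00683) and the kinase Abl2 (0.52, adjusted p = 0.0147) were the higher ones at 24 h. The list's medians were 0.04 and 0.07 at 24 and 48 h. None of 10 tested genes among other guidance receptors and ligands and none of 13 co-receptors and proteoglycans passed at any hour over all arrays, the netrin receptors Dcc, Neo1, Unc5b and Unc5c among the 10. When replicate 3 had its own term, Unc5b was lower at 24 h (-0.65, adjusted p = 0.0166) and Neo1 had -0.66 (adjusted p = 0.0618). Of the 13 co-receptors 5 were then lower at 24 h, where 6.25% of all genes were. They were the syndecans Sdc1, Sdc2, Sdc3 (-0.90, adjusted p = 0.0047) and Sdc4 and the adhesion molecule Nrcam. At 48 h Erbb2 was higher (4.2% of all genes were), and Sdc3 and the glypican Gpc1 were lower (4.94%). Unc5b was higher in replicate 3, 1054 against 445.7 (1.21, adjusted p = 5.08e-07).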

How the data were processed

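Gene expression was measured in 30 arrays, 15 of an A and 15 of a B chip, and hour, chip and replicate were read from each array's title. The values are intensities per probe set on a linear scale, deposited array by array without pooling and made by the manufacturer's standard protocol per the labels. What software and algorithm summarised the probes is not given in the sources used here, nor is the build. The trimmed mean (2% at each end) of the deposited intensities was 500.2 on the A arrays and 500.1 on the B arrays, so arrays had been scaled to a common level, which hides any change in total RNA per cell. No pair of arrays held identical values. Columns belonging to no listed sample numbered 0.

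Probe sets with 1 gene in GEO's platform annotation were used, with symbols updated through RefSeq. Promoter sequences are from RefSeq (GRCm38.p6). Intensities were log2 transformed after adding the 20th percentile of the chip, 29.3 on A and 54.4 on B, so differences of dim genes are understated. Tests covered the 60% of probe sets with the highest mean log2 values, 13575 of 22690 on A and 13506 of 22575 on B, leaving out 64 control probe sets on each. Each chip was fitted in limma 3.58.1 (R 4.3.3) with hour as the factor and eBayes with intensity trend, over 15 arrays. All tests were two-sided, p-values were adjusted by Benjamini-Hochberg over the chip in each comparison, and a gene was called at an adjusted p under 0.05. With 3 arrays against 3 an exact permutation test cannot go below 0.1, so the calls rest on the pooled spread. The number of arrays limits the precision.

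The members, the gene lists, the markers and the tests were chosen with earlier results of these data known. Genes named were all called members, the 10 largest uncalled differences at 48 h, the 4 with the highest intensity in each family and the 12 largest differences of replicate 3. Other tested members are named as well. Alternative settings were other pseudocounts, quantile normalization or median centring, no filter or the upper 40%, eBayes without trend, the next probe set, only the hours compared, a term for replicate 3, replicates 1 and 2 alone, a replicate block and leaving out each array. The fit comparing the changes of replicate 3 with those of the other two was chosen after seeing the data. The fits were tested on simulated data.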

Additional observations from a re-analysis of the deposited data

How the results depend on the processing

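Over all arrays 0 of 34 members were called at 12 h, 3 at 24 h, 4 at 48 h and 3 in the F test over all hours. Of all genes 0%, 2.61%, 2.08% and 2.06% were. With a term for replicate 3 the counts were 10 at 24 h, 7 at 48 h and 10 over all hours, against 11.8%, 9.14% and 13% of all genes. In replicates 1 and 2 alone they were 2 at 12 h, 11 at 24 h, 9 at 48 h and 13 over all hours, against 3.5%, 13.6%, 12% and 16.3%. Taking the next probe set for the 39 members that had one gave 1, 2 and 1 at 24 h, 48 h and over all hours. These calls were of Ephb3 at 24 h, Ephb3 and Plxnd1 at 48 h and Plxnd1 over all hours. Neither gene has a second probe set, so both kept the one used here and no call was repeated on another probe set. Only the arrays of the hours compared gave 0 at 24 h and 2 at 48 h, with fewer arrays behind the spread. Testing the upper 40% gave 1 at 48 h and 1 over all hours, with fewer genes tested. Sema3b, Ephb3 and Plxnd1, at the 51.1, 57 and 57.4 percentile of mean level on the A chip, were not tested there. The cause of the other shifts was not tested. Leaving out 1 array at a time gave 0 to 5 calls at 24 h, 1 to 5 at 48 h and 1 to 4 over all hours. Without replicate 1 at 0 h the counts were 0 at 24 h, 1 at 48 h and 1 over all hours. Direction was checked at 24 h and 48 h for 28 of the tested members, and none of these changed direction while called, under any alternative run.

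The labels do not say that a replicate number marks a shared culture or day. Arrays with the same number correlated in their deviations from the hour means by 0.475 to 0.726 on A and 0.228 to 0.433 on B for replicate 3, by 0.0445 to 0.622 and 0.0026 to 0.233 for replicate 1, and by 0.123 to 0.457 and 0.0379 to 0.198 for replicate 2, so replicate 3 was alike across hours and not every pair of the other two was over 0.1. With the replicate block 10 members were called at 24 h, 7 at 48 h and 9 over all hours, against 11%, 8.47% and 11.3% of all genes. With that block the lists had 3 genes higher and 2 lower at 24 h and 2 and 4 at 48 h for semaphorin and plexin signalling, 3 and 3 at either hour for Eph and ephrin signalling, 0 and 4 and then 1 and 1 for co-receptors, and 0 and 2 at 24 h for other guidance genes (Neo1, adjusted p = 0.0483, and Unc5b, adjusted p = 0.02). Among other cells' markers Rgs5 was called lower at both hours, Stmn2 lower at 24 h and Col1a2 higher at 48 h. Precision is limited by 3 arrays per hour, and dim probe sets near the filter have differences that the pseudocount shrinks.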
